A study of Rattus norvegicus with 4 samples.

Results

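The intermediate filament system was followed through 10 genes: the muscle filament gene Des, the mesenchymal filament gene Vim, the filament partners Nes and Synm, the keratins Krt8, Krt18 and Krt19, the lamins Lmna and Lmnb1, and Plec, which encodes the linker plectin. They were taken by symbol from a table of 18699 genes, each symbol stood for 1 row, and all 10 passed the filter on low counts. The RNA came from primary ventricular myocytes of wild-type Sprague Dawley rats aged 1 to 3 days. All cultures grew in medium with serum and bromodeoxyuridine, which holds back dividing cells other than myocytes. A group of 2 libraries received vehicle and the other group of 2 received carfilzomib at 1 µM, both for 24 h. Carfilzomib blocks the chymotrypsin-like site of the proteasome irreversibly. Nothing in the labels ties the libraries of a group to separate cultures or litters, so the p-values speak only to the spread among these 4 libraries, which may be technical. The libraries held 18655499 to 18884362 counts, of which 7.09% and 7.12% with vehicle, and 4.78% and 4.66% with carfilzomib, fell on the 10 genes with most counts.

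Intermediate filaments are rope-like polymers of coiled-coil proteins that give a cell its mechanical strength. In heart muscle, desmin rings the Z-discs and ties myofibrils to each other, to the cell membrane and to the nucleus, while plectin cross-links it to its anchors. Vimentin fills that place in fibroblasts, endothelial cells and immature muscle, and nestin and synemin join filaments only together with desmin or vimentin. Keratins are obligate pairs of a type II chain such as keratin 8 and a type I chain such as keratin 18 or 19. Lamins form the meshwork under the inner nuclear membrane.

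The promoters of 4 members are shown, those of 2 cytoplasmic filament pairs. Des rose and Vim fell, while Krt8 rose and Krt18 did not pass the test used below. Lmna rose and Lmnb1 fell as well, but their promoters are not shown. Each run is the 250 bases before the annotated start, 5′ to 3′, from RefSeq on the build GRCr8, which is not the build Rnor_6.0 named for the deposited counts. Capitals mark a TATA box (TATAAA), a GC box (GGGCGG) or a CCAAT box (CCAAT) on either strand. Of the 10 members, 8 had an entry.
Des (chr9:84299376-84299625, plus strand): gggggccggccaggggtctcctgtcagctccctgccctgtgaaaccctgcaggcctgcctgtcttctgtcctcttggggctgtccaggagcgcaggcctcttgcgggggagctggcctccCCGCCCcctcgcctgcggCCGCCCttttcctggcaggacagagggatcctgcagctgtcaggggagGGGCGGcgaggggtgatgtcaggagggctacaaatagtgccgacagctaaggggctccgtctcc
Vim (chr17:81577011-81577260, plus strand): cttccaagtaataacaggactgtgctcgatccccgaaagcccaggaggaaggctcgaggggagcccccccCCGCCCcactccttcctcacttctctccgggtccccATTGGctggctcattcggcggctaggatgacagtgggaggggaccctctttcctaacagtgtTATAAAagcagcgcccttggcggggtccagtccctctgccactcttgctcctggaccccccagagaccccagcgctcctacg
Krt8 (chr7:135010340-135010589, minus strand): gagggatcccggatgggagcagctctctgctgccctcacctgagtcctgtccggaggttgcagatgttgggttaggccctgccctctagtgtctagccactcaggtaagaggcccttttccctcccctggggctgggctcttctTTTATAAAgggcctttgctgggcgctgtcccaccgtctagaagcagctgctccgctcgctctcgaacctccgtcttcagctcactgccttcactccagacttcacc
Krt18 (chr7:135035918-135036167, plus strand): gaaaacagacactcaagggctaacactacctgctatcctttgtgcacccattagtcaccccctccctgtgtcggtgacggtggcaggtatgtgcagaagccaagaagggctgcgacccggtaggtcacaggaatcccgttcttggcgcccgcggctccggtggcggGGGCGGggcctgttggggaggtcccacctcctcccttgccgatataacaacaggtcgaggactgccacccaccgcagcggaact
The Des stretch held 3 GC boxes and no TATA box, and that of Krt18 held 1 GC box. In Krt8 the capitals are a TATA box read on both strands in overlapping letters, and in Vim all 3 motifs occurred once. A GC box was present in 5 of the 8 promoters (Des, Krt18, Lmna, Nes, Vim), against 30.5% of 33469 promoter windows of the same length. The GC content of these 8 ran from 49.2% (Synm) to 74.8% (Lmnb1), and all but Synm lay above the median of 51.2% over all windows; its part in the GC box count was not tested. The TATA box occurred in 2 of 8 (Krt8, Vim) against 12.9%, and the CCAAT box in 3 of 8 (Lmnb1, Synm, Vim) against 34.0%. An E-box (CANNTG), not capitalised here, occurred in 3 of 8 (Des, Krt8, Lmnb1) against 65.5%. None of the 8 held the letters of an antioxidant response core (TGACNNNGC), of a heat shock element core (GAANNTTC) or of an AP-1 site (TGANTCA), which were found in 10.1%, 7.23% and 6.34% of windows; the first and the last of these motifs can share bases. These matches describe letters in a window and are not sites of binding. In the RefSeq gene order, Krt8 and Krt18 have 0 protein-coding genes and 1 other gene between them.

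Carfilzomib-treated libraries had more Krt8, Des, Plec and Lmna RNA, and less Lmnb1, Synm, Nes and Vim RNA, than vehicle libraries. Krt8 rose most, 3.22-fold, and Lmnb1 fell most, 1.99-fold. Krt18 and Krt19 did not pass the test. A gene was called where edgeR's quasi-likelihood test, adjusted by Benjamini-Hochberg over the 14519 genes tested, gave a p under 0.05. Thus 4 members rose and 4 fell, where 30.6% of all tested genes rose, 30.1% fell and 60.7% were called in either direction. These shares are the background for the counts of every gene list and marker list below. In all 10 members the 2 groups of libraries did not overlap, as was true of 79.9% of tested genes. The median log2 fold change of the 10 members was -0.02, and that of all tested genes was 0.00. The authors' deposited DESeq2 table lists 6063 genes, all with q-values up to 0.0499, where the gene table has 18699. It holds the same 8 members with the same signs. As it compares the same vehicle and carfilzomib groups, this is not separate evidence.

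**Figure D1:**
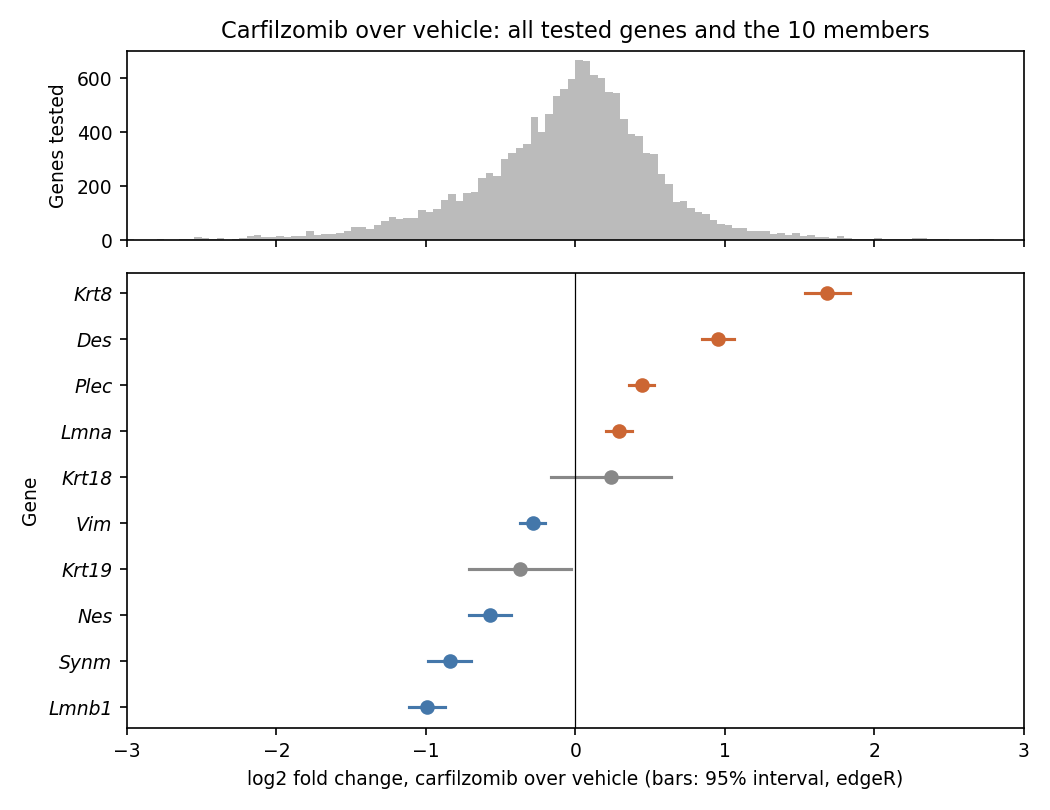
The upper panel is a histogram of log2 fold changes, carfilzomib over vehicle, for all 14519 tested genes (68 lie beyond the axis). The lower panel gives the 10 members on the same axis, with points for the estimate, bars for its 95% interval, orange for higher, blue for lower and grey for genes that did not pass; Krt8 and Des lie to the right, Lmnb1 and Synm to the left.

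Des encodes desmin, the main intermediate filament protein of mature muscle. Its level was 1387 and 1507 CPM (counts scaled to library size with TMM factors) in vehicle libraries 1 and 2, and 2914 and 2690 CPM in carfilzomib libraries 1 and 2. Both treated libraries were thus far above both vehicle libraries. Its log2 fold change was 0.95 ± 0.05 (SE; edgeR adjusted p = 1.83e-09), a rise of 1.94-fold, and 95.6% of tested genes had a lower fold change. In the same libraries 13 of 14 cardiomyocyte markers fell, with a median log2 fold change of -1.39. Their summed level was 35322 to 35325 CPM with vehicle and 11220 to 11705 CPM with carfilzomib. Nppa, the marker that did not pass, held 4241 CPM of the sum with vehicle and 4244 CPM with carfilzomib (group means). Myh6, the fast cardiac myosin heavy chain, whose deposited counts carried decimals, had a log2 fold change of -3.79. Tnnt2, cardiac troponin T, had -0.36.

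Vim encodes vimentin and was the most abundant member per length in vehicle libraries. It was at 2175 and 2203 CPM with vehicle, and at 1770 and 1822 CPM with carfilzomib. The 2 groups were clearly apart, although the change was small, a log2 fold change of -0.29 ± 0.04 (SE; edgeR adjusted p = 1.4e-05), or 17.9% less. Vimentin is abundant in fibroblasts, and 11 of 12 fibroblast markers fell, with a median of -0.82. Their summed level was 27835 to 28406 CPM with vehicle and 14864 to 15593 CPM with carfilzomib. In RNA of a mixed culture, fewer cells of a type and less RNA per cell cannot be told apart, and the part of cell composition in these changes was not tested.

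Nes and Synm encode the long-tailed proteins nestin and synemin, which need a partner filament. Nes was at 68.0 and 73.3 CPM with vehicle and at 49.1 and 45.9 CPM with carfilzomib. It fell by 0.57 ± 0.06 (SE) on the log2 scale (edgeR adjusted p = 2.18e-06). Some of its deposited counts carried decimals, for which no source names the tool, so reads shared with another locus may be split in it. Synm was at 58.2 and 51.9 CPM with vehicle and at 30.9 and 30.6 CPM with carfilzomib. It fell by 0.84 ± 0.07 (SE) on the log2 scale (edgeR adjusted p = 5.88e-08), and 89.5% of tested genes had a higher fold change. Both partners thus moved with Vim in sign and against Des. Per length, Synm stood at 0.0118 ± 0.00158 (SD, n = 2) of the Des level with vehicle and at 0.00339 ± 0.000156 with carfilzomib.

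Krt8 encodes keratin 8, a type II keratin of simple epithelia. It was at 14.0 and 14.5 CPM in vehicle libraries and at 45.1 and 46.4 CPM in carfilzomib libraries. Every treated library held about the same raised level, and the replicates of a group lay close together. The log2 fold change was 1.69 ± 0.07 (SE; edgeR adjusted p = 3.43e-11), above that of 98.8% of tested genes. Krt18, its usual type I partner, was at 3.66 and 3.36 CPM with vehicle and at 3.72 and 4.56 CPM with carfilzomib. The groups of Krt18 were barely apart, on 62 to 86 counts per library. The estimate, 0.24 ± 0.19 (SE) on the log2 scale, missed the threshold (edgeR adjusted p = 0.294), and its 95% interval allows a fold between 0.892 and 1.56, below the lower bound of 2.89 for Krt8. The difference between the 2 genes was not itself tested. The estimate for Krt18 was 0.38 without carfilzomib replicate 1 and 0.09 without carfilzomib replicate 2.

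Krt19 encodes keratin 19, another type I partner. It was at 8.56 and 6.50 CPM with vehicle and at 6.18 and 5.46 CPM with carfilzomib, so that vehicle library 2 lay near the treated ones. The estimate, -0.37 ± 0.16 (SE) on the log2 scale, missed the threshold (edgeR adjusted p = 0.0565). Without vehicle replicate 2 it was -0.56 with an edgeR adjusted p of 0.0186, and without vehicle replicate 1 it was -0.16 with 0.491. In both fits 1 vehicle library is left, which is assumed to vary like the carfilzomib pair, the only source of spread. The counting error of these low counts is wide: 120 counts in vehicle library 2 have an exact 95% Poisson interval of 99.5 to 143, and 68 counts of Krt18 in vehicle library 1 one of 52.8 to 86.2. Such intervals cover counting error only. Summed per length, the 2 type I partners were at 8.22 ± 1.27 FPKM (the deposited length-scaled unit; SD, n = 2) with vehicle and 7.59 ± 0.07 with carfilzomib, a difference within the vehicle spread.

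Keratins also mark the mesothelial and epithelial cells of the heart surface. Of 12 markers of such cells 5 fell (Muc16, Upk3b, Aldh1a2, Krt7, Lrrn4), 3 rose (Upk1b, Msln, Wt1) and 4 missed the threshold (median log2 fold change -0.36). These genes were named after their values were seen. Their summed level was 176 to 177 CPM with vehicle and 148 to 150 CPM with carfilzomib. Aldh1a2 alone held 42.5 CPM of that sum with vehicle and 15.8 CPM with carfilzomib (group means). None of the 12 was at 0 in a group, and the part of these cells in the Krt8 result was not tested. Upk1b, a surface plaque protein, rose by 0.59 on the log2 scale, and Krt7, another keratin of simple epithelia, fell by 0.95. The call of Wt1 was lost without vehicle replicate 1 or carfilzomib replicate 2, where its change was 0.23 each time. The call of Msln was lost without vehicle replicate 1 (0.24), carfilzomib replicate 1 (0.33) or carfilzomib replicate 2 (0.27). Both calls were also lost in DESeq2 (adjusted p = 0.136 for Wt1 and 0.256 for Msln).

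Lmna encodes lamins A and C, and Lmnb1 encodes lamin B1, which stays bound to the membrane through a lipid anchor. Lmna was at 403 and 422 CPM with vehicle and at 504 and 507 CPM with carfilzomib, a log2 fold change of 0.29 ± 0.04 (SE; edgeR adjusted p = 1.58e-05). Lmnb1 was at 99.5 and 98.6 CPM with vehicle and at 49.6 and 49.9 CPM with carfilzomib. It fell by 0.99 ± 0.06 (SE) on the log2 scale (edgeR adjusted p = 9.53e-10), and 92.1% of tested genes had a higher fold change. The 2 lamins thus moved in opposite directions, with little spread inside each group. All 10 proliferation markers fell as well, with a median of -0.93, and Mki67 fell by 0.93 on the log2 scale. Their summed level was 975 to 1021 CPM with vehicle and 517 to 525 CPM with carfilzomib, and their part in the Lmnb1 result was not tested.

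Plec encodes plectin, a giant linker between intermediate filaments, actin, microtubules and junctions. It was at 358 and 348 CPM with vehicle and at 486 and 474 CPM with carfilzomib, so both treated libraries were higher. The log2 fold change was 0.44 ± 0.04 (SE; edgeR adjusted p = 1.76e-07). Its deposited counts carried decimals. Relative to Des per length, Plec went from 0.0347 ± 0.00268 (SD, n = 2) to 0.0243 ± 0.000936.

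**Figure D2:**
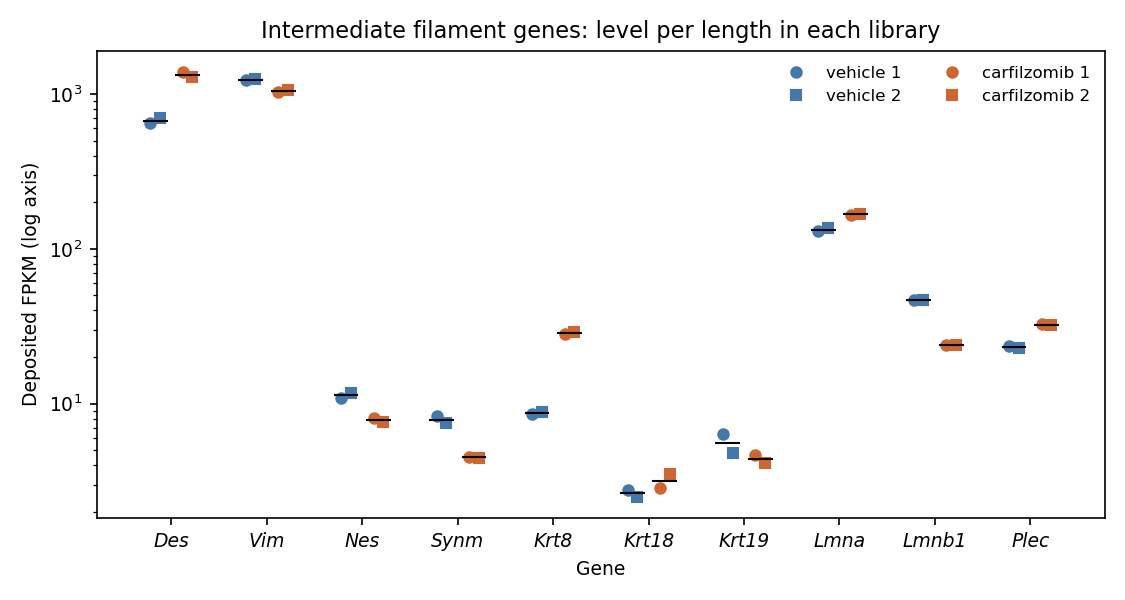
Deposited FPKM on a log axis for the 10 genes, with circles for replicate 1 and squares for replicate 2, blue for vehicle and orange for carfilzomib, and black lines for group means. Des and Vim stand far above the other genes and change places, and the points of Krt8 jump while those of Krt18 stay near 3 FPKM.

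Levels between genes were compared per length, on the FPKM scale, as mean ± SD of 2 libraries. With vehicle the order was Vim (1238 ± 7.55), Des (674 ± 37.5), Lmna (133 ± 3.97), Lmnb1 (46.7 ± 0.41), Plec (23.3 ± 0.51), Nes (11.3 ± 0.58), Krt8 (8.70 ± 0.22), Synm (7.90 ± 0.62), Krt19 (5.59 ± 1.10) and Krt18 (2.63 ± 0.17). Krt8 and Synm differed by little more than the spread of Synm, while the other neighbours were further apart than their SDs. With carfilzomib the order was Des (1336 ± 74.0), Vim (1040 ± 22.3), Lmna (167 ± 0.90), Plec (32.4 ± 0.54), Krt8 (28.6 ± 0.59), Lmnb1 (24.0 ± 0.10), Nes (7.81 ± 0.32), Synm (4.52 ± 0.04), Krt19 (4.42 ± 0.38) and Krt18 (3.17 ± 0.45). Here Synm and Krt19 overlapped. Krt8 moved from the 7th to the 5th place, and Lmnb1 from the 4th to the 6th.

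The 7 cytoplasmic filament genes (Des, Vim, Nes, Synm and the 3 keratins) summed to 1917 and 1979 FPKM with vehicle and to 2461 and 2388 FPKM with carfilzomib. Des and Vim made up 98.1% of that sum with vehicle and 98.0% with carfilzomib. Des alone took 33.8% and 35.4% of it with vehicle, and 56.4% and 53.8% with carfilzomib. The share of Vim was 64.3% and 62.8% with vehicle, and 41.6% and 44.2% with carfilzomib. The most abundant filament RNA was therefore Vim in both vehicle libraries and Des in both carfilzomib libraries.

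Ratios within a library compare partners directly. Des over Vim was 0.526 and 0.564 with vehicle and 1.36 and 1.22 with carfilzomib. Krt8 over Krt18 was 3.11 and 3.53 with vehicle and 9.89 and 8.32 with carfilzomib. Lmna over Lmnb1 was 2.77 and 2.93 with vehicle and 6.95 and 6.96 with carfilzomib, and Lmna took 74.0% ± 0.74 and 87.4% ± 0.01 (SD, n = 2) of the sum of Lmna and Lmnb1. The 3 ratios of group means of these quotients were 2.36, 2.75 and 2.44. In each case the gap between groups exceeded the spread within them; with 2 libraries against 2, an exact two-sided permutation test cannot go below p = 0.333, so no p is given for these ratios.

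**Figure D3:**
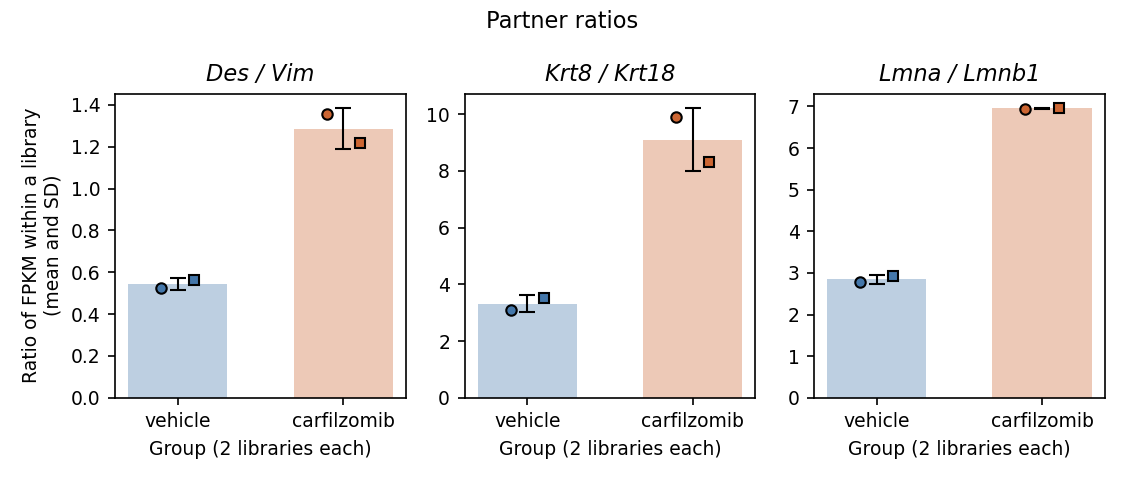
FPKM ratios of 3 gene pairs within each library; bars are means of 2 libraries, error bars the SD, circles replicate 1 and squares replicate 2. Des over Vim goes from below 1 to above 1, and the other 2 ratios also rise in both carfilzomib libraries.

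Most other intermediate filament genes were scarce. Of 32 such genes listed, 27 were matched to the table and 16 had enough counts to be tested. Of the genes tested, 3 rose (Sync, Prph, Bfsp2), 6 fell (Lmnb2, Krt7, Krt17, Bfsp1, Gfap, Nefl) and 7 missed the threshold (median log2 fold change -0.20). The shares over all tested genes were 30.6% higher and 30.1% lower. Krt17, a type I keratin (counts with decimals), fell by 1.03 on the log2 scale, from 3.40 to 1.66 CPM (group means). Bfsp1, a lens filament gene, fell by 1.24, from 1.38 to 0.58 CPM. Both were named after their values were seen, and their calls were not followed in the alternative fits. Lmnb2, the second B-type lamin, fell from 60.2 ± 1.01 to 32.1 ± 1.02 CPM (mean ± SD, n = 2), a log2 fold change of -0.91 ± 0.06 (SE) beside the -0.99 of Lmnb1. Sync, which encodes syncoilin, a desmin partner (counts with decimals), rose by 0.29, and Prph, peripherin of peripheral neurons, by 0.34. The call of Prph was lost in DESeq2 (0.35, adjusted p = 0.183) and without carfilzomib replicate 1, at 0.32. Bfsp2, a lens filament gene named after its value was seen, was at 0.49 and 1.16 CPM, and its call was lost in DESeq2 (adjusted p = 0.2) and without any 1 of the 4 libraries, at log2 fold changes from 1.17 to 1.32. Among 10 glial and neural markers, which include the filament genes Gfap and Nefl, Tubb3 rose and Gfap, Nefl and Ngfr fell, with a list median of -0.31. Their summed level was 76.0 to 80.3 CPM with vehicle and 101 to 108 CPM with carfilzomib, of which Tubb3 alone held 46.3 and 80.8 CPM (group means). The calls of Gfap (without vehicle replicate 2, at -1.27, or carfilzomib replicate 1, at -1.01, against -1.69 with all and -2.96 without carfilzomib replicate 2), Nefl (without vehicle replicate 1, at -0.81, vehicle replicate 2, at -1.06, or carfilzomib replicate 2, at -0.60, against -0.94 with all) and Ngfr (without carfilzomib replicate 2, at -0.45) were lost with fewer libraries. In DESeq2 these 3 calls were lost too.

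Genes that anchor filaments moved in both directions, as did all tested genes (30.6% rose and 30.1% fell). Of 18 cytolinkers and anchors, 7 rose, 7 fell and 4 missed the threshold (median 0.02). Flnc, filamin C of Z-discs and costameres, rose 2.91-fold from 570 ± 11.1 to 1656 ± 0.02 CPM. Ppl, periplakin, a plakin like plectin that binds keratins and vimentin, rose 2.79-fold from 25.5 ± 1.73 to 71.1 ± 3.52 CPM, and Dsg2, a desmosomal cadherin, rose by 0.42 on the log2 scale. Nebl, the Z-disc protein nebulette that binds desmin, fell 2.35-fold, from 112 and 88.1 CPM to 43.6 and 41.4 CPM, and Dtna, alpha-dystrobrevin, a binding partner of syncoilin (counts with decimals), by 0.89 on the log2 scale. Desmoplakin and plakophilin 2, which hold desmin at the desmosome, were chosen after their values were seen: Dsp had a log2 fold change of -0.39 and Pkp2 one of -0.55. Jup and Dsc2, also desmosomal genes of this list, had 0.01 and 0.03 and did not pass (edgeR adjusted p = 0.829 and 0.78).

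Of the keratin-associated genes in that list, also chosen after their values were seen, Fam83h encodes a protein that organises keratin filaments. It went from 3.32 ± 0.03 CPM with vehicle to 15.9 ± 0.92 CPM with carfilzomib (SD, n = 2), a 4.78-fold rise with a log2 fold change of 2.26 ± 0.13 (SE; edgeR adjusted p = 1.2e-09). Eppk1, epiplakin, which binds keratins in epithelia, was at 8.99 and 6.28 CPM with vehicle and at 1.83 and 1.96 CPM with carfilzomib, and its deposited counts carried decimals. The 2 genes thus moved in opposite directions in the libraries where Krt8 rose.

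Of 24 chaperones and enzymes that act on filaments, 12 rose, 5 fell (Padi2, Cdk1, Plk1, Aurkb, Mtmr1) and 7 missed the threshold (median 0.15). Among all tested genes 30.6% rose and 30.1% fell. Cryab, the small heat shock protein that binds desmin and vimentin filaments, rose by 1.13 on the log2 scale, from 1272 ± 41.8 to 2775 ± 25.1 CPM. Bag3, a co-chaperone at the Z-disc, rose by 0.67, and Hspb1, a further small heat shock protein, by 0.66. The mitotic kinases Cdk1 and Plk1, which phosphorylate vimentin or lamins at division, fell by 1.18 and 1.02. Cdk1, Plk1 and Aurkb are also among the 10 proliferation markers, all of which fell, so these falls are not separate results. Trim32, a ubiquitin ligase that serves in the removal of desmin, had a log2 fold change of -0.08 that did not pass (edgeR adjusted p = 0.343). The call of Padi2 was lost without vehicle replicate 2, at -1.60, and that of Mtmr1, at -0.16 with all libraries, without any 1 of the 4, at -0.18 to -0.13. With the replicate block Mtmr1 also lost its call (edgeR adjusted p = 0.0651). In DESeq2 the calls of Padi2 (adjusted p = 0.0954) and Mtmr1 (0.305) were lost.

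Of 24 genes of the nuclear envelope and of lamin processing, 8 rose, 9 fell and 7 missed the threshold (median -0.09). Over all tested genes the shares were 30.6% and 30.1%. Nrm, the inner membrane protein nurim (counts with decimals), fell by 1.10 on the log2 scale, Tmpo, whose LAP2 products bind lamins, by 0.76, and Emd, emerin, by 0.62. Lbr, the lamin B receptor, chosen after its value was seen, fell by 0.48. Tor1aip2, an activator of torsin (counts with decimals), rose by 0.58, and Tmem43, the inner membrane protein LUMA, by 0.54. Among the enzymes that process the lamin tail, chosen after their values were seen, Zmpste24, the protease that matures prelamin A, was at 91.7 and 85.0 CPM with vehicle and 108 and 112 CPM with carfilzomib, a log2 fold change of 0.32. Fnta, the shared alpha subunit of farnesyltransferase, rose by 0.26, and Rce1, the CaaX protease, had -0.16 and did not pass. Fntb, the farnesyltransferase beta subunit, fell by 0.26 and Icmt, a methyltransferase, rose by 0.22. The call of Fntb was lost without vehicle replicate 1 (-0.30), vehicle replicate 2 (-0.23) or carfilzomib replicate 1 (-0.14), and without carfilzomib replicate 2 the value was -0.39. That of Icmt was lost without vehicle replicate 2 (0.15), carfilzomib replicate 1 (0.22) or carfilzomib replicate 2 (0.24). In DESeq2 both were lost (adjusted p = 0.222 for Fntb and 0.194 for Icmt).

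**Figure D4:**
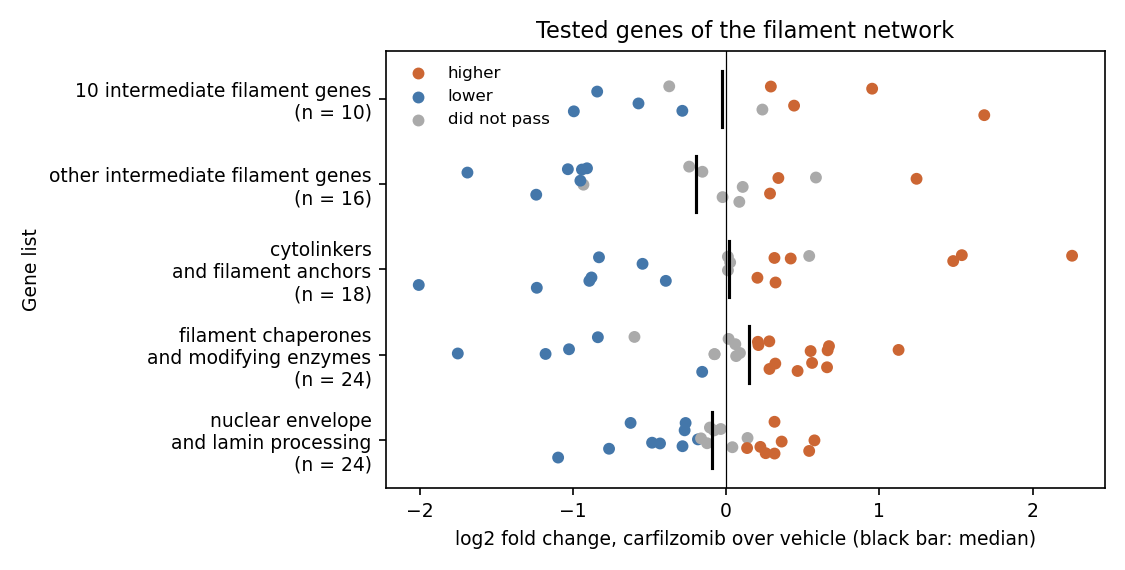
Each point is a tested gene of 1 of 5 lists, placed by its log2 fold change, carfilzomib over vehicle; orange points rose, blue points fell, grey points did not pass, and black bars are list medians, which lie between -0.20 and 0.15. Each list holds genes on both sides of 0.

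Cell type markers bear on the label of the cultures. The vehicle and carfilzomib means were 9820 and 712 CPM for Myh6 and 3342 and 2612 CPM for Tnnt2. With vehicle the cardiomyocyte markers summed to 35322 to 35325 CPM and the fibroblast markers to 27835 to 28406 CPM. CPM are not scaled to length, so these sums do not give shares of cells. None of the matched markers was at 0 in every library. Smooth muscle and pericyte markers fell in 8 of 8 cases, from 4022 to 4173 CPM summed with vehicle to 1439 to 1473 CPM with carfilzomib. Macrophage markers fell in 7 of 7 tested, from 77.5 to 80.5 CPM to 28.0 to 29.8 CPM, and Cd163, not tested, had 1 count in each vehicle library and 0 in each treated one. Of 8 endothelial markers 2 rose (Tek, Egfl7) and 2 fell (Vwf, Kdr), with a list median of -0.27. Kdr, at -0.40, lost its call in DESeq2 (adjusted p = 0.0682). The sum was 88.0 to 88.6 CPM with vehicle and 92.0 to 95.1 CPM with carfilzomib. Vimentin is a filament of all these other cell types. The fall of Vim by 17.9% stands beside fibroblast, smooth muscle, macrophage and endothelial sums at 0.542, 0.355, 0.366 and 1.06 of the vehicle level. Col1a1 alone held 19670 CPM of the fibroblast sum with vehicle and 10873 CPM with carfilzomib (group means). Acta2 (counts with decimals) held 2340 CPM of the smooth muscle sum with vehicle and 542 CPM with carfilzomib. Lyz2 (counts with decimals) held 35.0 CPM of the macrophage sum with vehicle and 5.50 CPM with carfilzomib. The smallest falls among tested genes of those lists were 0.32 (Cspg4, smooth muscle and pericyte) and 0.31 (Csf1r, macrophage) on the log2 scale. Single fibroblast markers ran from a log2 fold change of -2.00 (Thy1) to -0.33 (Dcn), beside -0.29 for Vim. The share of each cell type in the Vim RNA was not tested.

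**Figure D5:**
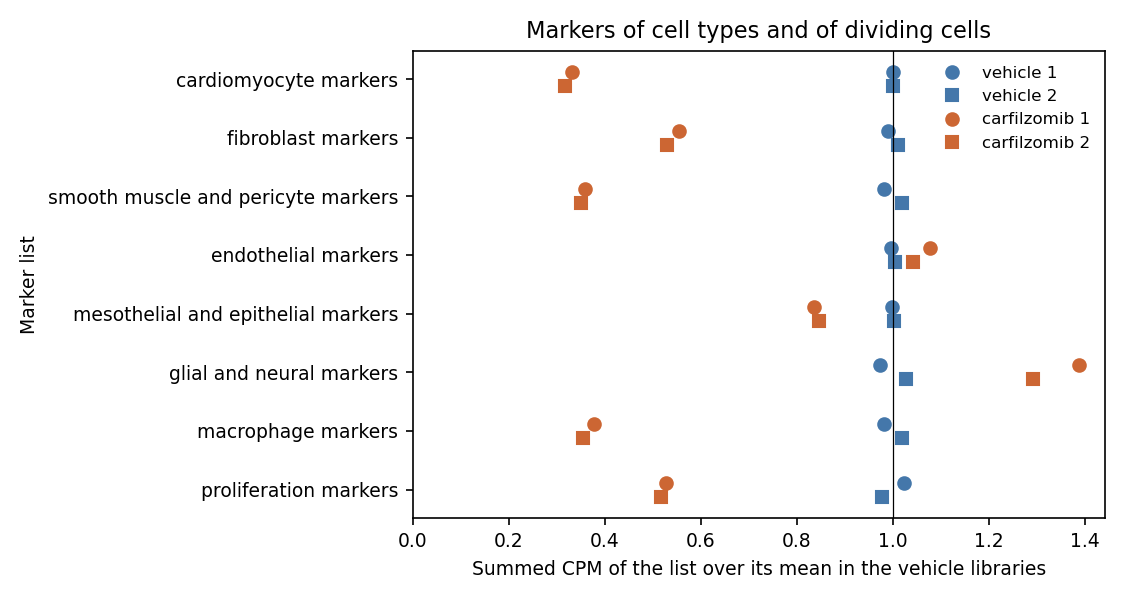
Summed CPM of 8 marker lists in each library, divided by the mean of the vehicle libraries of that list; circles are replicate 1, squares replicate 2, blue vehicle, orange carfilzomib. With carfilzomib, cardiomyocyte, fibroblast, smooth muscle, macrophage and proliferation markers lie between 0.318 and 0.555. Mesothelial markers lie near 0.84, where Aldh1a2 alone goes from 42.5 to 15.8 CPM (group means). Endothelial markers lie just above 1 (list median log2 fold change -0.27). Glial and neural markers, most of whose sum is Tubb3, lie between 1.29 and 1.39 (list median -0.31).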

How the data were processed

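The authors deposited estimated counts per gene that are not normalised; 28.5% to 28.9% of genes in each library carry decimals (tolerance 1e-06), 6563 genes in any library, and were rounded here to whole numbers. They also deposited FPKM values, used to compare levels between genes and for the sums, shares and ratios per length in each group. These FPKM were not TMM-scaled here, and no test was run on them. The authors further deposited a comparison table with log2 fold changes, p-values and q-values from DESeq2, per the file headers. The submitters' processing notes name featureCounts 1.6.0, HISAT, Bowtie2, cutadapt 2.0, FastQC 0.11.8, R 3.3.2, DESeq2 and the build Rnor_6.0, without their roles. The sources used here do not give the strand setting. Columns named as control were read as vehicle replicates 1 and 2 by their numbers, because the labels hold no other control. A further 10 columns of TPM and means were not used.

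Totals were 18655499 to 18884362 counts per library. Replicates differed by more than sampling noise (chi-square per degree of freedom of 2.99 and 2.71). The fit used edgeR 4.0.16 in R 4.3.3: filterByExpr (minimum count 10, minimum total 15), TMM factors from 0.987 to 1.01, a robust quasi-likelihood F test over all 4 libraries without a replicate block, and Benjamini-Hochberg adjustment over all tested genes. CPM are TMM-scaled; SE is the absolute log2 fold change over the square root of F. The script was tested on simulated counts. The alternatives were DESeq2 1.42.0, limma-voom (limma 3.58.1), a replicate block, RLE factors, scaling by library size only, dropping the low-count filter, a stricter filter (1 CPM in 2 libraries, total of 50) and leaving out each library.

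The members, lists and motifs were chosen with earlier results of these data known. Of 192 list entries 187 were matched by symbol, and 5 were not matched; some genes stand in 2 lists. From each of the 4 pathway lists the text names, among called genes with a mean of at least 10 CPM, the 3 genes that changed most in the commoner direction and the 2 that changed most in the rarer one, or fewer where fewer qualified; equal numbers of calls, as in the cytolinkers, were settled as higher.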

Additional observations from a re-analysis of the deposited data

How the results depend on the processing

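The number of members that rose was 4 under all 11 alternatives, and the number that fell was 4, or 5 without vehicle replicate 2, where Krt19 passed. A fit without 1 library takes its spread from the other group's pair alone; without 1 library the 2 numbers ranged from 4 to 4 and from 4 to 5. Of 110 member values under the alternatives, 109 kept their direction and their side of the threshold. The log2 fold change of Krt8 lay between 1.66 and 1.72, of Des between 0.90 and 1.01 and of Lmna between 0.26 and 0.33 over all alternatives. With the replicate block 4 members rose and 4 fell, and the block changed no member's call. Of the other genes named, 52 were followed through the alternatives, and among these the block changed the call of Mtmr1 only. The deviations of same-numbered libraries had a correlation across genes of -0.00011. As this compares 1 pair of deviations, it cannot show whether such libraries share a culture or litter. Over all genes, 8812 were called as reported, 8229 with the block, 6244 by DESeq2, 8657 by limma-voom, and 7360 to 7974 without 1 library. For the same 52 other genes, 528 of 570 values kept direction and side of the threshold and 42 kept direction only. These 42 concern 12 genes: Bfsp2, Fntb, Gfap, Icmt, Kdr, Msln, Mtmr1, Nefl, Ngfr, Padi2, Prph and Wt1, each of which lost its call in DESeq2, Kdr there only. Library size alone moved the median of all tested genes to 0.04. Counts near 100 per library, as in Krt18 and Krt19, limit what can be detected.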
